A study of Homo sapiens with 6 samples.

Results

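Among 37887 gene symbols counted by RNA-seq in BT-549 cells, 85 were scarce in control cells and more abundant in every IRF1shRNA library. These transcripts were chosen by their own measured levels. Each had a mean below 1 CPM (the count in every 1000000 counts of its library) in control, a mean of at least 0.5 CPM in IRF1shRNA, and a lowest IRF1shRNA value at least 2 times the highest control value. Symbols that begin with any of 23 family prefixes, such as those of chemokines, collagens, integrins, kinesins and ribosomal proteins, were left out. The level limits were met by 1506 rows, and 93 of these (6.18%) also met the margin, of which 8 carried a left-out prefix. The differences between control and IRF1shRNA below therefore describe what the choice was made on and are given without a test.

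The cell line BT-549 was established from a human triple-negative breast tumour, and IRF1 is a DNA-binding factor of the interferon (IFN) response. RNA was sequenced from 3 control and 3 IRF1shRNA cultures. The control cultures were given 0.1% DMSO and the IRF1shRNA cultures 500 ng/ml doxycycline, the inducer of the tet-IRF1 shRNA. The sample titles call the controls control shRNA cells, whereas the design text of the series describes vehicle and doxycycline treatment of the same stably transduced cells. No control library received doxycycline and 1 IRF1 hairpin was used, so IRF1 loss, doxycycline and any other target of that hairpin cannot be told apart.

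IRF1 mRNA was measured in control libraries at 44.9, 47.2 and 50.3 CPM, and in IRF1shRNA libraries at 14.0, 15.0 and 15.0 CPM, a log2 fold change of -1.74 ± 0.06 (SE; adjusted p = 4.53e-13, edgeR's quasi-likelihood test over 18851 genes). Library totals ranged from 55143808 to 160436234 counts, the smallest being IRF1shRNA replicate 2, and 3 counts corresponded to between 0.0187 and 0.0544 CPM. The summed mesenchymal markers of the line (VIM, SPARC, FN1, ZEB1 and CDH2) lay at 3081 to 3183 CPM in control and 2880 to 3064 CPM in IRF1shRNA. The sum combined opposite changes. VIM, FN1 and ZEB1 were lower (log2 fold changes -0.556, -0.34 and -0.136, adjusted p = 3.10e-08, 5.44e-06 and 0.0118, edgeR). SPARC was higher (0.199, adjusted p = 0.00166, edgeR), and CDH2 was not called (0.0282, adjusted p = 0.674, edgeR). Endothelial, erythroid and lymphocyte markers summed to at most 0.280, 0.0971 and 0.762 CPM in any library, and HBB, CD3D, CD2 and MS4A1 had no count. Summed myeloid markers ranged from 2.48 to 2.76 CPM in control and from 3.50 to 3.94 CPM in IRF1shRNA, with CD14 at 1.07 and 2.25 CPM, CSF1R at 1.33 and 1.16 CPM and ITGAM at 0.175 and 0.193 CPM. Summed neuronal markers ranged from 17.6 to 18.2 CPM in control and from 9.04 to 10.3 CPM in IRF1shRNA, and 2 of the 6, DCX and ELAVL4, had no count. Summed epithelial markers ranged from 9.22 to 9.72 CPM and from 4.08 to 4.66 CPM. The part of other cell types in the differences described here was not tested.

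A transcript near 1 CPM is far below the level of a typical expressed gene, and in bulk RNA a few copies in every cell and more copies in a small number of cells cannot be told apart. Genes of this kind are often tied to a specialised cell: the dynein arms, radial spokes and CFAP proteins of motile cilia and sperm flagella, for example, are transcribed in ciliated epithelium and testis under RFX factors and FOXJ1. RFX proteins bind the X-box, whose half-site reads GTTGCC, and IRF1 binds the IFN-stimulated response element (ISRE), in which GAAA repeats are separated by a pair of bases.

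RefSeq promoter windows (GRCh38.p14, 250 bases before to 50 after the annotated start) were matched for 63 of the 85 transcripts. Windows of 5 cilium genes are printed first because each holds the RFX half-site, CFAP57 stands beside them as a cilium gene without it, ARG2 is shown for its cAMP response elements (CRE, TGACGTCA), and FBXW10 because it had the widest gap between groups. The 250 bases before the start are given 5′ to 3′ on the strand of the gene. Capitals mark GTTGCC or its complement GGCAAC, the ISRE, the CRE, and the TATA box TATAAA or its complement TTTATA. No marked match overlaps another in these windows.
CCDC113, chr16:58249686-58249935, plus strand: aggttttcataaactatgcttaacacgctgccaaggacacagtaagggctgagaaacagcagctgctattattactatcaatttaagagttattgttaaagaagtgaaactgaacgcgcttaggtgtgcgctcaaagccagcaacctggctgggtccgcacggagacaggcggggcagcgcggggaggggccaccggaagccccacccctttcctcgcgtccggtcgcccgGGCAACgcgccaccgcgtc
DNAH6, chr2:84516248-84516497, plus strand: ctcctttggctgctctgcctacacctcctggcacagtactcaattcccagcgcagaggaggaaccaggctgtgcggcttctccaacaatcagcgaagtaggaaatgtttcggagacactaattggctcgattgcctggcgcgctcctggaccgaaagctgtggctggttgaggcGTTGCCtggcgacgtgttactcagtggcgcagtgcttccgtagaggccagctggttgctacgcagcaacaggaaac
ENKUR, chr10:25016159-25016408, minus strand: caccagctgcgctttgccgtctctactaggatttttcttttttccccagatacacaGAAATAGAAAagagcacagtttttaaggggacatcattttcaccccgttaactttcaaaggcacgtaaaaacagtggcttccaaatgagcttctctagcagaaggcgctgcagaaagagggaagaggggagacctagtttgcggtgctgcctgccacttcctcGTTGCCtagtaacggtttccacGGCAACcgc
DNAH12, chr3:57544345-57544594, minus strand: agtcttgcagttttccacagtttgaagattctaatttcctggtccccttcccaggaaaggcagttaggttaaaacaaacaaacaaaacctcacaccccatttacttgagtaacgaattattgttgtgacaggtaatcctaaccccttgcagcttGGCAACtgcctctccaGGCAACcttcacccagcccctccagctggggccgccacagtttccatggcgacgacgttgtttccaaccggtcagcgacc
CFAP47, chrX:35919484-35919733, plus strand: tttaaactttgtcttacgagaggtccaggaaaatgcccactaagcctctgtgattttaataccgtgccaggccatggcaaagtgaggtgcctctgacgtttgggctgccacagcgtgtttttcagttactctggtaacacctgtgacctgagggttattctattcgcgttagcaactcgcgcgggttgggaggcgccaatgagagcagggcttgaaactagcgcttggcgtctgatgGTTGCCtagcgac
CFAP57, chr1:43172080-43172329, plus strand: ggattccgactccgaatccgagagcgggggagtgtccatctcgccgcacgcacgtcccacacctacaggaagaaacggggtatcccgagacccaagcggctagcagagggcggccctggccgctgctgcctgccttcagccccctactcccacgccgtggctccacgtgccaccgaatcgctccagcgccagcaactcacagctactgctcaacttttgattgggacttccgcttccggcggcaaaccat
ARG2, chr14:67619670-67619919, plus strand: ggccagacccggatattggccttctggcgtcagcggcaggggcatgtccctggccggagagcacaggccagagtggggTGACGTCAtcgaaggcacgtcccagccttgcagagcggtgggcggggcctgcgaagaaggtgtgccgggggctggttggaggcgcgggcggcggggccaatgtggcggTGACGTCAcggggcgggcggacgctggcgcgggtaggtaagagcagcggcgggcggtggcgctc
FBXW10, chr17:18743804-18744053, plus strand: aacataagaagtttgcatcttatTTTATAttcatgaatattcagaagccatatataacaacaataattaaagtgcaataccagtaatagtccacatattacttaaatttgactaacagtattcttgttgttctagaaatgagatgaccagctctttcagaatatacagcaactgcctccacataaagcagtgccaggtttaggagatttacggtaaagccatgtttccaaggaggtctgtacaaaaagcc

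The half-site GTTGCC, searched on both strands of the whole 300-base window, was present in 12 of 63 windows (19.0%), against 12.2% of all 27305 windows, 13% of those of genes tested and 15.4% of those whose gene met the level limits but not the margin. It was added to the search after the levels had been seen. CCDC113 held it 19 bases before the start, DNAH6 at 76, CFAP47 at 13, ENKUR at 31 and 9, and DNAH12 at 96 and 80. The other windows that held it belonged to LRGUK, SOX30, ZNF474, CRB1, SPDYE3, PAIP2B and CPB2-AS1. The ISRE was present in 2 windows, those of ENKUR and LRGUK (3.17%), against 3.65% of all windows and 2.91% of those of genes tested. The CRE was present in 3 windows, those of ARG2, TMEM59L and GNG7 (4.76%, against 1.98% of all, 2.99% of those of genes tested and 2.64% of those that met the level limits but not the margin), and the ARG2 window held 2 copies, 172 and 64 bases before the start. TATAAA was present in 8 windows (12.7%, against 12% of all and 6.51% of those of genes tested), the AP-1 motif TGANTCA in 2 (3.17%, against 7.76% and 5.13%), and CCAAT in 21 (33.3%, against 35.7% and 36.2%). The GC box GGGCGG was present in 29 windows (46.0%), close to the 44.6% of all windows and below the 66.3% of the windows of genes tested. The median GC content of the 63 windows was 60.4% with 13 CpG dinucleotides, against 64.4% and 20 for genes tested. A match is a stretch of letters and not a measured binding site.

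Libraries are given throughout in the order of their replicate numbers. CPM is not corrected for transcript length, so it compares a gene between libraries and not with other genes. The 85 transcripts together summed to 35.0, 36.1 and 34.1 CPM in the controls and to 124, 128 and 126 CPM after IRF1 silencing. Control means ranged from 0.0789 to 0.972 CPM (median 0.329) and IRF1shRNA means from 0.503 to 4.81 CPM (median 1.24), so 53 of the 85 reached a mean of 1 CPM and 20 a mean of 2 CPM in IRF1shRNA. The IRF1shRNA mean was 2.18 to 9.27 times the control mean (median 3.46 times), over 3 times for 68 transcripts and over 4 times for 25. All 85 passed the filter on low counts, through which an IRF1shRNA level of this size carried them, and all 85 were called higher in the fit, where the background was 24.1% of genes tested called higher and 26.4% called lower. Nothing is read from that count, since the same contrast chose the transcripts. The fitted log2 fold changes ran from 1.07 to 3.17 with a median of 1.72, beside a median of -0.0024 over all genes tested, and their standard errors from 0.12 to 0.40.

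The counts behind these values were modest. The lowest IRF1shRNA count of a transcript ranged from 24 to 279 (median 68) and the highest control count from 14 to 156 (median 56), and none of the 85 was without a count in a control library. The coefficient of variation among replicates had a median of 18.3% in control and 11.6% in IRF1shRNA. It was widest for STMN4 in IRF1shRNA (42.0%) and for ESRRB in control (69.0%), where replicate 1 held 3 counts and replicates 2 and 3 held 21 each. The highest of the 3 IRF1shRNA values came from replicate 2, the shallowest library, for 41 transcripts and from replicates 1 and 3 for 22 each, and the lowest came from replicates 1, 2 and 3 for 31, 25 and 29.

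**Figure D1:**
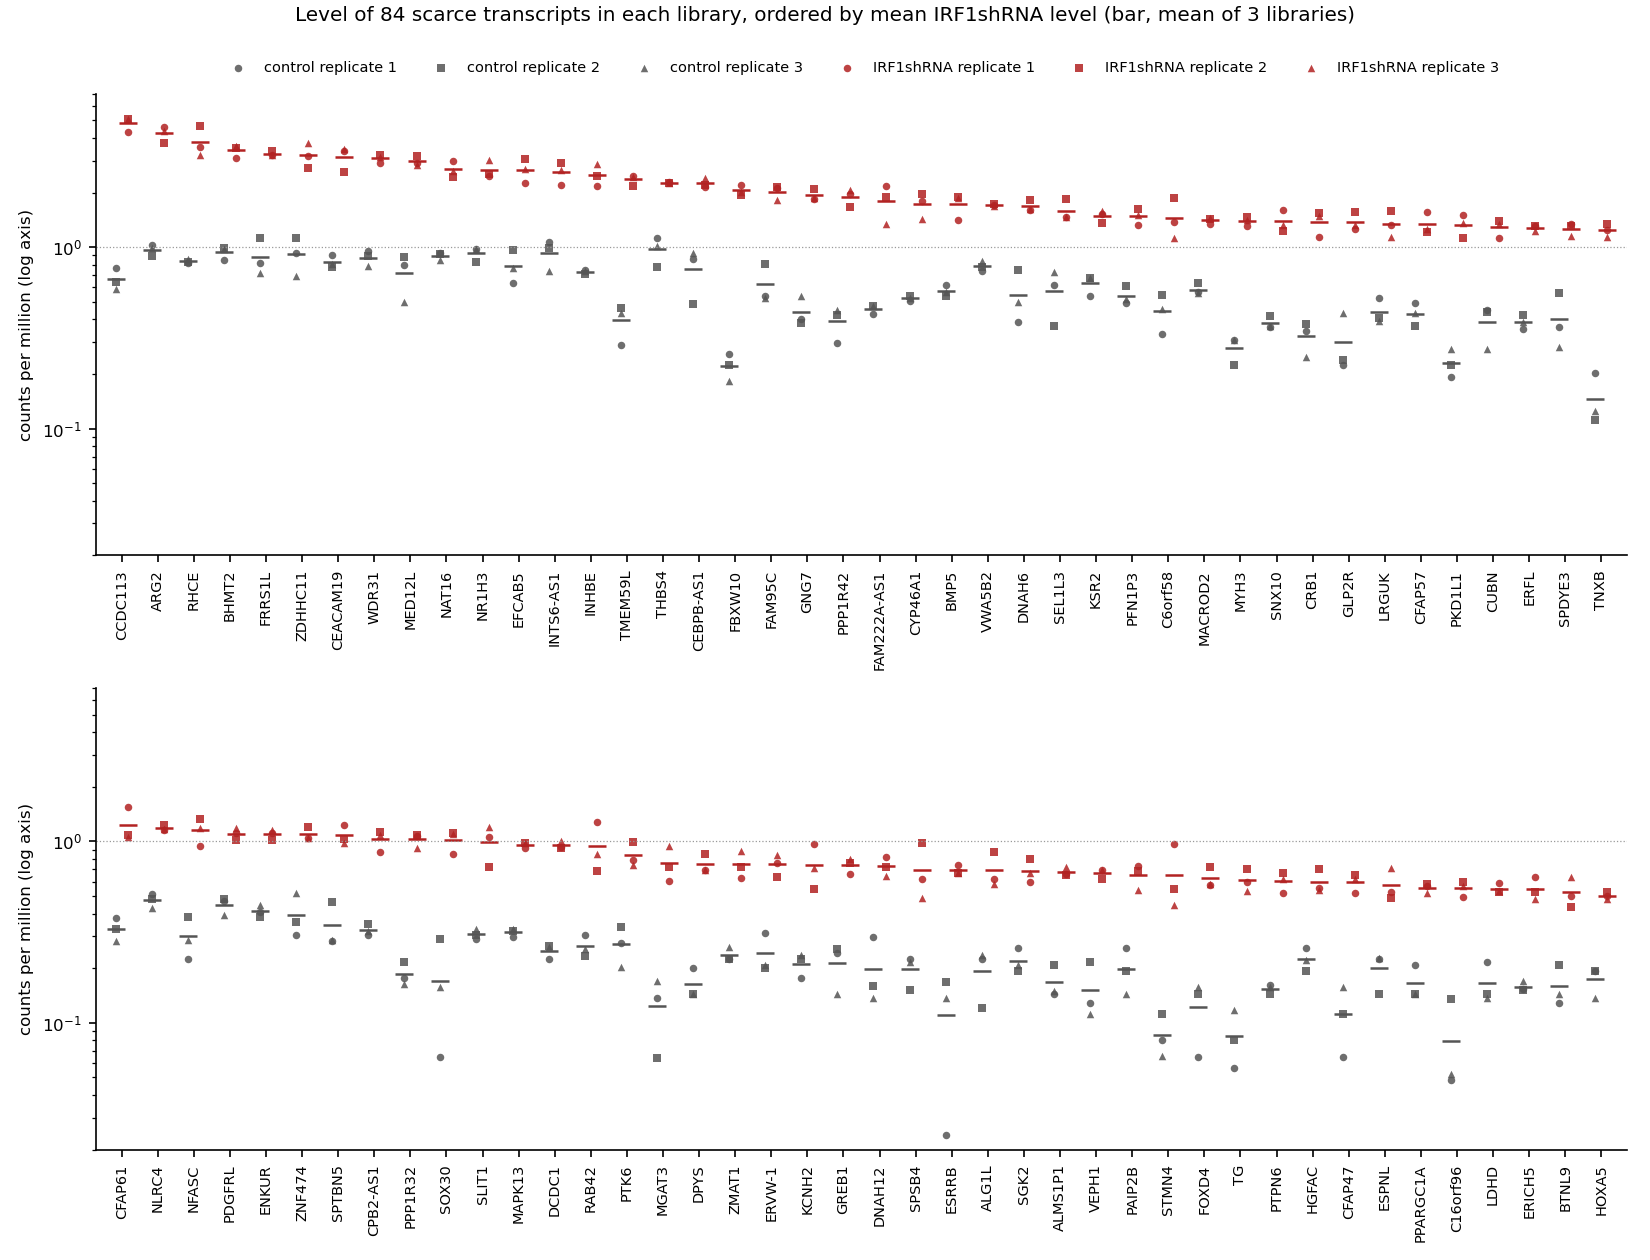
Level of 84 of the 85 transcripts in each of the 6 libraries, in CPM on a log axis, ordered by the mean IRF1shRNA level and split into an upper and a lower row (grey, control; red, IRF1shRNA; marker shape, replicate; horizontal bars, means of 3 libraries; dotted line, 1 CPM). Every red point lies above every grey point of the same gene because the choice required it, and the IRF1shRNA means run from 4.81 CPM for CCDC113 to 0.503 CPM for HOXA5.

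**Figure D2:**
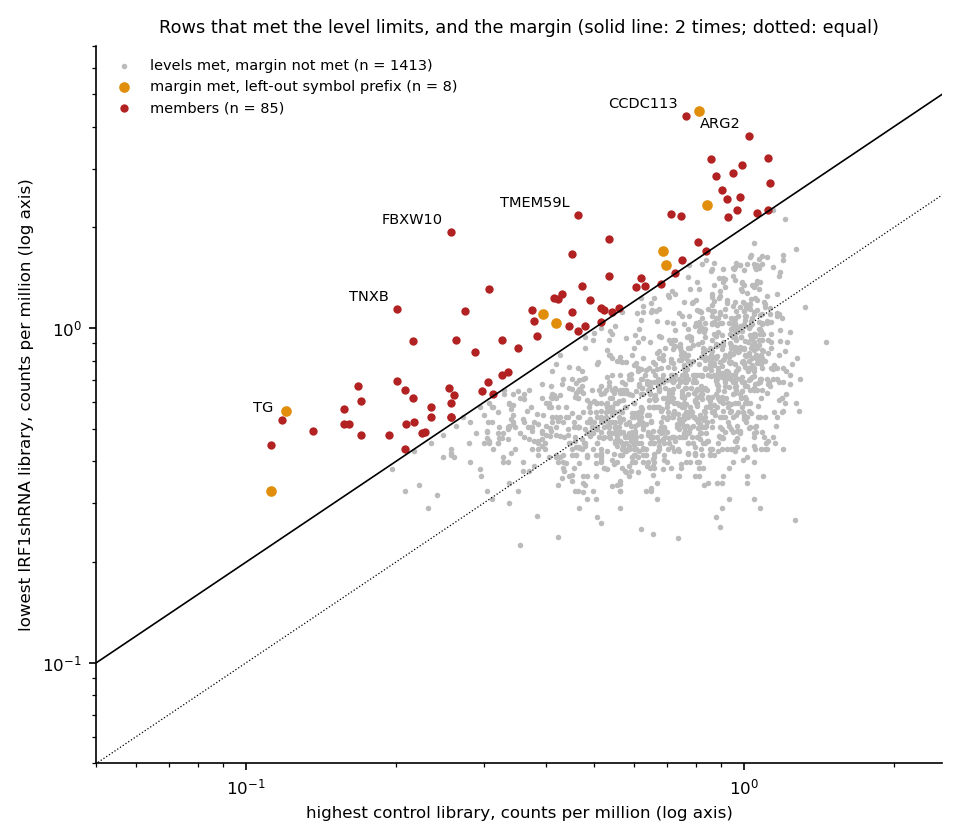
Each point is 1 of the 1506 rows that met the level limits, placed by its highest control library (x axis) and lowest IRF1shRNA library (y axis), both in CPM on log axes. The solid line is the 2-fold margin and the dotted line equality, and the 85 transcripts (red) lie on or above the solid line, 42 of them at a ratio under 2.5, with FBXW10 and TNXB farthest out.

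The margin cut through a continuous range of values. Ratios of the lowest IRF1shRNA to the highest control value ranged from 2.0 to 7.53 with a median of 2.51, and 42 transcripts lay under 2.5, 27 at 3 or more and 9 at 4 or more. KSR2 (2.0), SEL1L3 (2.01) and THBS4 (2.01) were just inside, and TTC29 (1.99), TBC1D10C (1.98) and ZSCAN12P1 (1.98) just outside. At the level limits, HOXA5 (0.503 CPM in IRF1shRNA) and THBS4 (0.972 CPM in control) were just inside, and PHF24 (0.497 CPM in IRF1shRNA) and NAALADL2 (1.02 CPM in control) just outside, with ratios of 4.75 and 2.48.

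Genes of the cilium and flagellum formed the largest of 10 role groups, which were assigned by hand after the values had been seen. Roles were given only to the scarce transcripts, and only 7 members of this group were on the cilium list described below. The size of a group depends on how broadly it was drawn and has no background, so its rank is not a result. The 14 members summed to 5.79, 6.14 and 5.64 CPM in control and to 23.4, 24.2 and 23.8 CPM in IRF1shRNA. CCDC113, a coiled-coil protein of the ciliary axoneme (chr16:58231157-58283836, plus strand, GENCODE 29), was measured at 0.765, 0.640 and 0.589 CPM in control and at 4.30, 5.06 and 5.07 CPM in IRF1shRNA. The groups were far apart, IRF1shRNA replicate 1 being the lowest of its 3, and the log2 fold change was 2.81 ± 0.13 (SE, n = 3 and 3). WDR31, a WD-repeat protein linked to cilia, was measured at 0.950, 0.888 and 0.785 CPM in control and at 2.91, 3.21 and 3.14 CPM in IRF1shRNA, with little spread in either group. EFCAB5, an EF-hand protein, was measured at 0.636, 0.968 and 0.772 CPM and at 2.26, 3.06 and 2.69 CPM, replicate 2 being the highest in both groups.

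PKD1L1, the polycystin of the embryonic node that takes part in left-right patterning, was measured at 0.193, 0.224 and 0.275 CPM in control and at 1.5, 1.12 and 1.36 CPM in IRF1shRNA. PPP1R32, a protein of the sperm axoneme, was measured at 0.177, 0.216 and 0.164 CPM and at 1.07, 1.09 and 0.916 CPM. Both had a lowest IRF1shRNA value more than 4 times the highest control value, with log2 fold changes of 2.47 ± 0.22 and 2.40 ± 0.24. The axonemal dynein heavy chains DNAH6 and DNAH12, whose ATPase heads drive the ciliary beat, went from a mean of 0.545 ± 0.187 to 1.68 ± 0.117 CPM (SD, n = 3) and from 0.198 ± 0.0868 to 0.730 ± 0.0848 CPM. DNAH6 control values spread from 0.386 to 0.752 CPM, which left it close to the margin at a ratio of 2.13. The axoneme proteins CFAP57 (0.430 to 1.34 CPM), CFAP61 (0.329 to 1.23 CPM) and CFAP47 (0.111 to 0.598 CPM) and the flagellar calmodulin-binding protein ENKUR (0.413 to 1.09 CPM) completed the members that were also on the cilium list described below. The remaining members of the group were PPP1R42 (log2 fold change 2.23 ± 0.19), LRGUK (1.54 ± 0.21) and DCDC1 (1.88 ± 0.23). LRGUK is required for the sperm tail, PPP1R42 is a leucine-rich regulator of protein phosphatase found in testis, and DCDC1 is a doublecortin-domain protein.

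Calls on the cilium list were also counted over the genes that the margin had not chosen. It held 89 genes of the motile cilium and axoneme, of which 77 passed the filter and 7 were among the 85 transcripts. Of the other 70, 37 were higher in IRF1shRNA (52.9%, against 24.1% of all genes tested) and 8 lower (26.4% of all genes tested), with a median log2 fold change of 0.39. Among those with a control mean below 1 CPM, 16 of 30 were higher (53.3%) and 1 lower (3.33%). Of the 5770 genes tested at that level, the 85 left aside, 13.3% were higher and 7.24% lower. Among those at 1 CPM or more, 21 of 40 were higher (52.5%) and 7 lower (17.5%). Of the 12996 genes tested at that level, 28.4% were higher and 35.0% lower. The list had been drawn up with earlier results of these data known. A gene scarce in control could also pass the filter through its IRF1shRNA level. These shares are therefore a description.

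The other cilium genes called higher lay at, above and below the levels of the 85. CFAP43 rose from a mean of 1.94 CPM to 5.65 CPM (log2 fold change 1.49 ± 0.10, adjusted p = 8.89e-10, edgeR). The dynein heavy chain DNAH1 rose from 10.8 to 19.5 CPM (0.81 ± 0.07, adjusted p = 5.99e-08, edgeR). CFAP221 rose from 1.0 to 2.67 CPM (adjusted p = 4.17e-06, edgeR). The radial spoke gene RSPH1 went from 0.0565 to 0.355 CPM. Its control level would not pass the filter by itself, so no p-value is given for it. Lower in IRF1shRNA were the dynein heavy chain DNAH3, which fell from 0.781 to 0.200 CPM (log2 fold change -2.02 ± 0.26, adjusted p = 5.10e-06, edgeR), and PIFO, a gene of cilium disassembly, which fell from 2.20 to 0.933 CPM (adjusted p = 1.60e-06, edgeR). Among the regulators on the list, RFX3 rose from 25.3 to 34.7 CPM (0.41 ± 0.06, adjusted p = 3.74e-05, edgeR) and RFX2 from 7.16 to 10.3 CPM (0.47 ± 0.07, adjusted p = 4.67e-05, edgeR). MCIDAS and CCNO, which direct the formation of many cilia in 1 cell, fell from 3.07 to 2.30 CPM and from 3.94 to 2.90 CPM (adjusted p = 0.00185 and 0.00160, edgeR). FOXJ1 did not pass the filter and had 0.0388 CPM in control against 0.0395 CPM in IRF1shRNA, near the level of 3 counts. These genes were named after their values had been seen.

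The half-site was present in 34 of the 68 windows matched for the cilium list (50%), in 5 of 7 windows of the scarce transcripts, in 13 of 28 of the other genes called higher (46.4%), in 9 of 18 not called (50%) and in 2 of 5 called lower. No difference among these shares was tested.

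**Figure D3:**
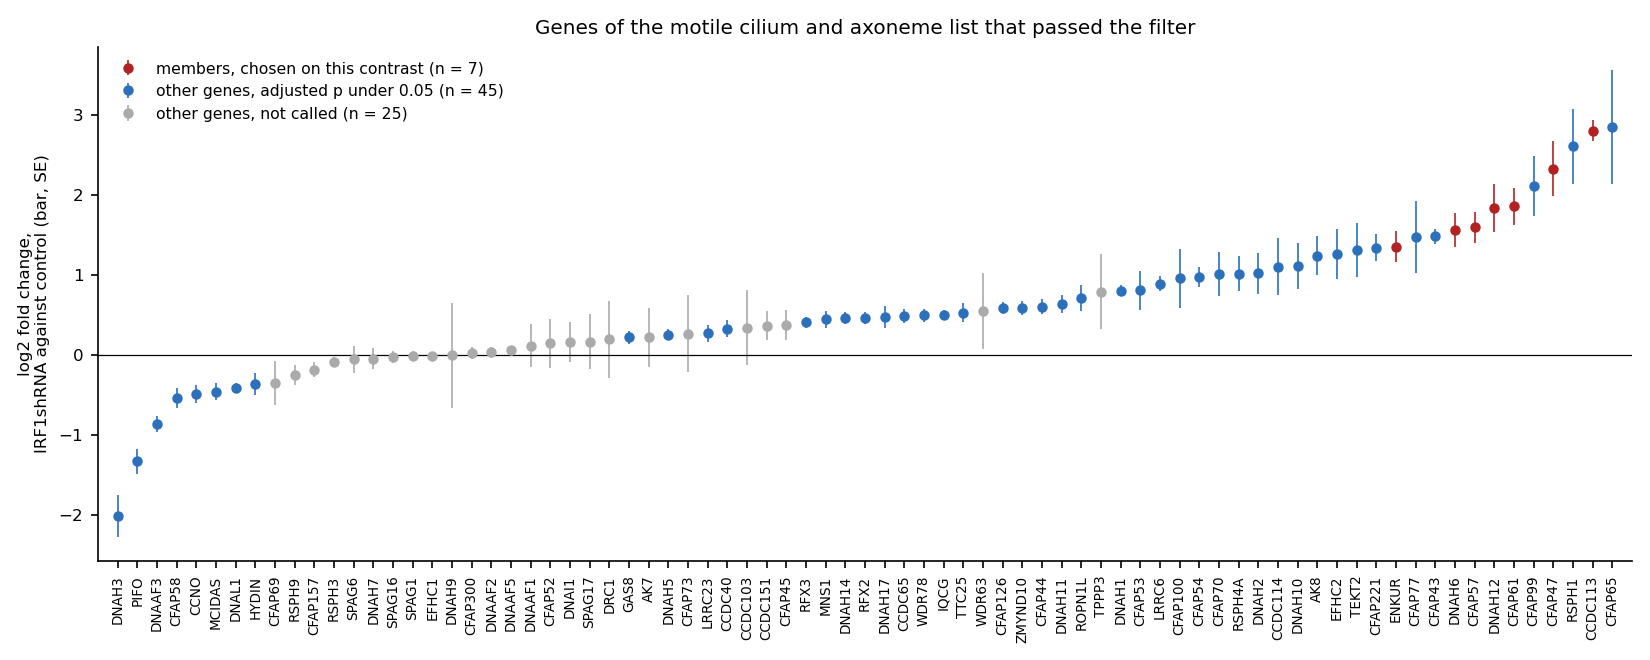
Fitted log2 fold change (IRF1shRNA against control, y axis) of the 77 genes of the cilium list that passed the filter, ordered by fold change, with standard errors. The 7 scarce transcripts chosen on this contrast (red) lie at the right end between 1.36 and 2.81, and of the other 70 (blue, adjusted p under 0.05 in edgeR; grey, not called) 37 are called above 0 and 8 below.

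Receptors, channels and other surface proteins made up 11 of the transcripts, with summed levels of 4.70, 5.26 and 4.64 CPM in control and 19.3, 20.2 and 19.9 CPM in IRF1shRNA. RHCE, which encodes Rh blood group antigens of red cells (chr1:25362249-25430192, minus strand), was measured at 0.821, 0.824 and 0.857 CPM in control and at 3.56, 4.66 and 3.2 CPM in IRF1shRNA. The controls agreed closely and IRF1shRNA replicate 2 stood above the other two, while the haemoglobin and glycophorin markers of red cells stayed at or near 0. FRRS1L, a component of AMPA receptor assembly in neurons, was measured at 0.821, 1.12 and 0.720 CPM and at 3.24, 3.37 and 3.23 CPM, the IRF1shRNA values lying within a narrow band. TMEM59L, a brain-enriched relative of the autophagy protein TMEM59, was measured at 0.290, 0.464 and 0.432 CPM and at 2.47, 2.18 and 2.44 CPM, a log2 fold change of 2.53 ± 0.18 and 1 of the 8 widest ratios (4.69). The summed neuronal markers given above were lower in IRF1shRNA, whereas FRRS1L and TMEM59L were higher.

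CEACAM19, of the carcinoembryonic antigen family, was measured at 0.901, 0.776 and 0.805 CPM in control and at 3.37, 2.59 and 3.48 CPM in IRF1shRNA. It overlaps PVR on the same strand (144 CPM in control against 158 CPM in IRF1shRNA, log2 fold change 0.08, adjusted p = 0.114, edgeR). The potassium channel gene KCNH2 was measured at 0.177, 0.224 and 0.235 CPM and at 0.971, 0.544 and 0.711 CPM, with replicate 1 well above replicate 2 within IRF1shRNA. The other surface genes were the retinal polarity gene CRB1 (log2 fold change 2.04), the glucagon-like peptide 2 receptor GLP2R (2.12), the vitamin B12 receptor CUBN (1.68), the axonal adhesion gene NFASC (1.87), the retroviral envelope ERVW-1, which encodes syncytin-1 (1.60), and the butyrophilin-like BTNL9 (1.68).

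Metabolic enzymes contributed 9 transcripts. ARG2, the mitochondrial arginase (chr14:67619798-67651720, plus strand), was measured at 1.02, 0.896 and 0.988 CPM in control and at 4.57, 3.75 and 4.38 CPM in IRF1shRNA, a log2 fold change of 2.08 ± 0.12. IRF1shRNA replicate 2 was the lowest of its group and still above 3 times any control. BHMT2, which remethylates homocysteine with S-methylmethionine, was measured at 0.853, 0.992 and 0.975 CPM and at 3.08, 3.54 and 3.62 CPM, and NAT16, an N-acetyltransferase, at 0.926, 0.912 and 0.850 CPM and at 2.97, 2.43 and 2.64 CPM. Both pairs of groups were separated by a gap wider than the spread inside either group. The remaining enzymes were the cholesterol 24-hydroxylase CYP46A1 (0.522 to 1.73 CPM), the ADP-ribose hydrolase MACROD2 (0.584 to 1.40 CPM), the bisecting N-acetylglucosaminyltransferase MGAT3 (0.124 to 0.758 CPM), the dihydropyrimidinase DPYS (0.163 to 0.749 CPM), the D-lactate dehydrogenase LDHD (0.166 to 0.549 CPM) and ALG1L (0.194 to 0.691 CPM), a shortened copy of the mannosyltransferase ALG1.

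Transcription regulators numbered 11. MED12L, a paralog of the Mediator kinase-module subunit MED12, was measured at 0.797, 0.880 and 0.497 CPM in control and at 2.91, 3.19 and 2.84 CPM in IRF1shRNA. NR1H3, the liver X receptor alpha that senses oxysterols, was measured at 0.982, 0.832 and 0.981 CPM and at 2.46, 2.54 and 3.02 CPM. Every IRF1shRNA value of both genes lay above 2 CPM and every control value below 1 CPM. Among the nuclear receptor partners, the orphan receptor ESRRB had a mean of 0.110 ± 0.0758 CPM in control and 0.694 ± 0.0373 CPM in IRF1shRNA (SD, n = 3), and the coactivator PPARGC1A 0.166 ± 0.0377 and 0.555 ± 0.0331 CPM. GREB1, an oestrogen-responsive gene of breast cells, went from 0.214 to 0.741 CPM, while the oestrogen receptor gene ESR1 lay at 0.0161 CPM in control against 0.103 CPM in IRF1shRNA and did not pass the filter. SOX30, a regulator of spermatogenesis, was measured at 0.0644, 0.288 and 0.157 CPM and at 0.850, 1.11 and 1.1 CPM, with a wide spread in control. HOXA5 had the lowest IRF1shRNA mean in CPM, at 0.502, 0.526 and 0.480 CPM against 0.193, 0.192 and 0.137 CPM in control. FOXD4, ZNF474, ZMAT1 and ERFL had log2 fold changes of 2.26, 1.39, 1.60 and 1.66.

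Secreted ligands and matrix proteins numbered 9 and held 2 of the 8 widest ratios, those of TNXB and TG. TNXB, which encodes the matrix protein tenascin-X (chr6:32041153-32115334, minus strand), was measured at 0.201, 0.112 and 0.124 CPM in control and at 1.24, 1.34 and 1.14 CPM in IRF1shRNA. Its log2 fold change was 3.03 ± 0.26, on counts of 25, 14 and 19 in control and 153, 74 and 183 in IRF1shRNA. TG, the thyroglobulin gene, was measured at 0.0563, 0.0800 and 0.118 CPM and at 0.599, 0.707 and 0.530 CPM, from 7 to 18 counts in a control library. INHBE, an inhibin beta subunit, was measured at 0.748, 0.712 and 0.739 CPM and at 2.16, 2.47 and 2.89 CPM, the controls being nearly equal. THBS4, a thrombospondin, was the most even member in IRF1shRNA, at 2.27, 2.25 and 2.27 CPM, but its control values of 1.12, 0.776 and 1.02 CPM set it at the edge of the margin. BMP5, SLIT1, PDGFRL, HGFAC and C6orf58 had log2 fold changes of 1.53, 1.67, 1.26, 1.34 and 1.62. BMP5 is a bone morphogenetic protein, SLIT1 an axon guidance ligand and HGFAC the activator of hepatocyte growth factor.

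Signalling genes numbered 9 and none of them reached a mean of 2 CPM in IRF1shRNA. GNG7, a gamma subunit of heterotrimeric G proteins, went from 0.441 ± 0.0832 to 1.94 ± 0.142 CPM (SD, n = 3). KSR2, a scaffold of the RAF-MEK-ERK cascade, was measured at 0.539, 0.680 and 0.674 CPM in control and at 1.51, 1.36 and 1.58 CPM in IRF1shRNA, and it met the margin with nothing to spare. The inflammasome sensor NLRC4 went from 0.476 to 1.18 CPM, the p38 delta kinase MAPK13 from 0.315 to 0.960 CPM, the breast tumour kinase PTK6 from 0.271 to 0.844 CPM, and the tyrosine phosphatase PTPN6 (SHP-1) from 0.154 to 0.602 CPM. NLRC4 and PTPN6 are best known from blood cells, and of the blood cell markers PTPRC lay at 0.517 CPM in control against 0.488 CPM in IRF1shRNA, while the myeloid marker CD14 was higher (1.07 against 2.25 CPM, log2 fold change 1.0, adjusted p = 1.43e-05, edgeR). Of the other myeloid markers, CSF1R (1.33 against 1.16 CPM, adjusted p = 0.183, edgeR) and ITGAM (0.175 against 0.193 CPM, adjusted p = 0.990, edgeR) were not called. LYZ and FCGR3A did not pass the filter. The part of myeloid cells in these differences was not tested. SGK2, VEPH1 and RAB42 had log2 fold changes of 1.57, 2.11 and 1.8.

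FBXW10, an F-box protein of ubiquitin ligases, had the widest gap of the 85. It was measured at 0.258, 0.224 and 0.183 CPM in control and at 2.21, 1.94 and 2.01 CPM in IRF1shRNA, a ratio of lowest to highest of 7.53 and a log2 fold change of 3.17 ± 0.19. The counts were 32, 28 and 28 against 273, 107 and 323. CDRT1, a related gene in which 48.4% of the 32-base stretches of FBXW10 are also found, was itself higher (1.32 to 4.85 CPM, log2 fold change 1.83, adjusted p = 7.20e-09, edgeR), so the counts of these genes may be divided between them. ZDHHC11, a palmitoyltransferase, was measured at 0.926, 1.13 and 0.693 CPM and at 3.17, 2.72 and 3.74 CPM. The endosomal sorting nexin SNX10 went from 0.381 to 1.39 CPM and SPSB4 from 0.198 to 0.696 CPM.

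The cytoskeleton group held 4 genes. MYH3, the embryonic skeletal myosin heavy chain, was measured at 0.306, 0.224 and 0.307 CPM in control and at 1.31, 1.47 and 1.41 CPM in IRF1shRNA. STMN4, a stathmin of neurons, was measured at 0.0805, 0.112 and 0.0654 CPM and at 0.963, 0.544 and 0.449 CPM, from 10 to 14 counts in a control library. Replicate 1 of IRF1shRNA stood well above the other 2 for STMN4, whereas the MYH3 replicates lay together. The spectrin SPTBN5 and the espin-like ESPNL had log2 fold changes of 1.61 and 1.49.

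A further 7 members have no role that is well described, namely FAM95C, VWA5B2, SEL1L3, SPDYE3, PAIP2B, C16orf96 and ERICH5. Their log2 fold changes ran from 1.07 for VWA5B2, the smallest of all 85, to 2.75 for C16orf96, which had 6, 17 and 8 counts in control and 61, 33 and 91 in IRF1shRNA.

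**Figure D4:**
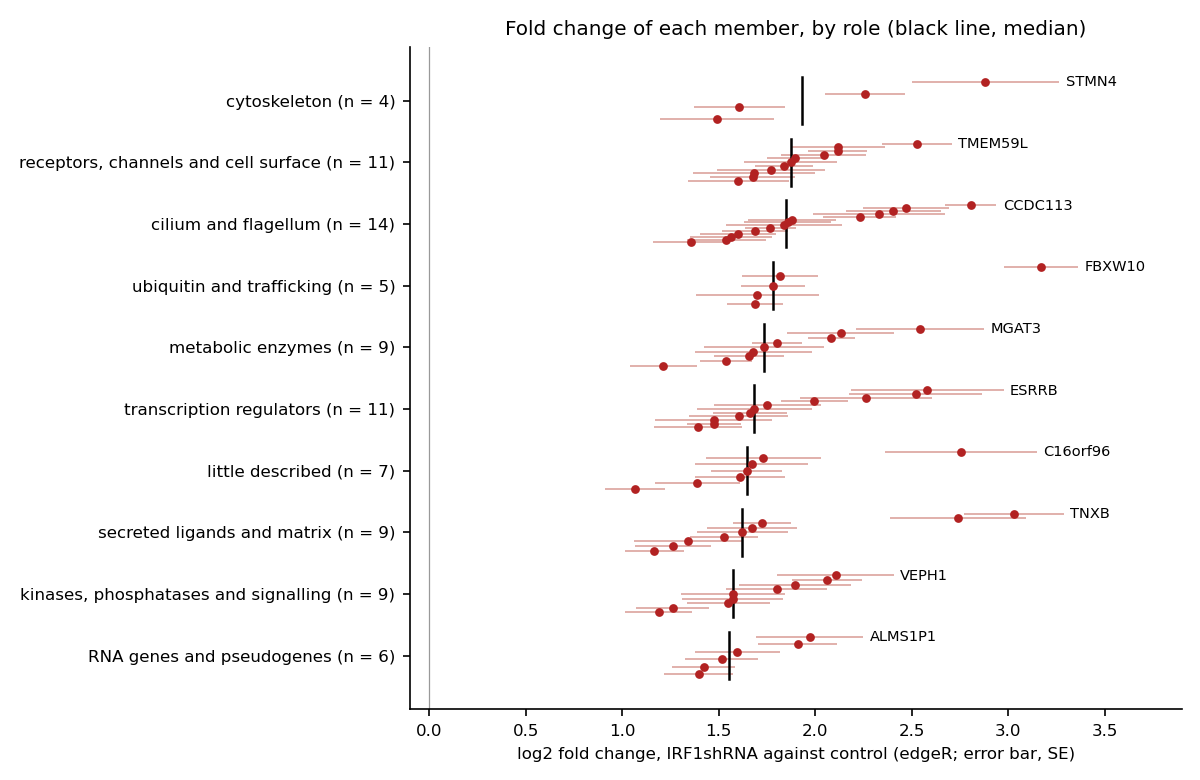
Fitted log2 fold change (x axis, with its standard error) of each of the 85 transcripts, by role group (y axis), with the group median as a black line and the member with the largest fold change named. Group medians lie between 1.56 for the RNA genes and pseudogenes and 1.93 for the cytoskeleton genes, and the ranges of all 10 groups overlap.

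Only 7 members were not annotated as protein coding in GENCODE 29. There were 4 antisense genes and 2 pseudogenes, and ERFL had no entry. INTS6-AS1 was measured at 1.06, 0.992 and 0.739 CPM in control and at 2.21, 2.92 and 2.65 CPM in IRF1shRNA, while INTS6 on the other strand went from 68.0 to 81.1 CPM (log2 fold change 0.20 ± 0.04, adjusted p = 0.000871, edgeR). CEBPB-AS1 was measured at 0.861, 0.488 and 0.929 CPM and at 2.15, 2.21 and 2.41 CPM, while the transcription factor gene CEBPB fell from 104 to 85.5 CPM (-0.34 ± 0.06, adjusted p = 6.66e-05, edgeR). FAM222A-AS1 was measured at 0.427, 0.472 and 0.471 CPM and at 2.17, 1.89 and 1.33 CPM, and FAM222A at 6.89 and 7.77 CPM (0.13 ± 0.09, adjusted p = 0.246, edgeR). CPB2-AS1 went from 0.326 to 1.03 CPM, and CPB2 was at 0.137 and 0.209 CPM (adjusted p = 0.234, edgeR). The choice had fixed the antisense RNAs as higher, whereas of their partner genes INTS6 was called higher, CEBPB lower, and FAM222A and CPB2 were not called. The kit marks strand, but whether the counting used strand is not given in the sources used here, so reads of an antisense gene and of its partner may not have been told apart.

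The pseudogene PFN1P3 (0.539 to 1.48 CPM) shared 86.5% of its 32-base stretches with other genes, most with PFN1P2 (2.03 and 2.18 CPM, adjusted p = 0.701, edgeR). ALMS1P1 (0.168 to 0.680 CPM) shared 9.30% with ALMS1, which was itself higher (86.5 to 131 CPM, log2 fold change 0.55, adjusted p = 9.08e-09, edgeR). FOXD4 shared 76.1%, mostly with FOXD4L1, SPDYE3 50.9%, most with SPDYE9P, and RHCE 32.5%, mostly with RHD, which was also higher (0.624 to 1.0 CPM, adjusted p = 0.0195, edgeR). Counts of these genes are uncertain wherever reads fit more than 1 copy. In all, 13 of the 84 members with transcripts in the annotation shared over 10% of their stretches with another gene on the same strand and 71 less than that.

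The members were spread over the genome, and no member lay within 100000 bases of another. Chromosome 7 held 8, the most of any chromosome. The nearest tested gene was called higher for 32 of 84 members (38.1%, against 24.1% of all genes tested) and lower for 23 (27.4%, against 26.4%). For 33 members the nearest tested gene overlapped the member itself, so this count shares genes with the count of overlapping genes below. The share for nearest genes that do not overlap was not counted apart. Some neighbours went the opposite way: GLI1, 855 bases from INHBE, had a log2 fold change of -1.18, and ADAM19, 49904 bases from SOX30, one of -3.05. SLC7A2, 5860 bases from PDGFRL, went the same way (3.07) and met the level limits and the margin, but carried a left-out prefix. A total of 33 members overlapped a tested gene, 24 of them on the opposite strand, and of the 37 overlapping genes 19 were called higher and 5 lower. Among these, EBNA1BP2 opposite CFAP57 went from 298 to 392 CPM (log2 fold change 0.34), CRNKL1 opposite CFAP61 from 42.2 to 56.2 CPM (0.36), and TAF12 opposite RAB42 from 40.3 to 63.3 CPM (0.60), each at far higher levels than the member. The part of reads from overlapping genes in the member counts was not tested.

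The 78 protein-coding members had a larger median genomic span and more exons than their peers. Their exonic length differed less, with a median of 5282.5 bases. It was 3897 bases for coding genes that met the level limits but not the margin, and 4983 bases for coding genes tested. The members' genomic span had a median of 47.8 kb and 14 exons, against 26 kb and 9 exons for the 720 coding genes that met the level limits but not the margin, and 32.5 kb and 11 exons for coding genes tested. Coding genes made up 91.8% of the members and 60.3% of the rows that met the level limits only, while pseudogenes made up 2.35% and 21.5%. Coding genes made up 76.4% of genes tested. Under the mirrored limits described below, coding genes made up 85.2% and pseudogenes 6.17%. A high coding share was therefore not particular to transcripts that were higher in IRF1shRNA. Per kilobase of exon, IRF1shRNA levels ranged from 0.0510 CPM per kb (PPARGC1A) to 3.68 CPM per kb (PFN1P3), with a median of 0.235. On this scale ARG2 (1.75 CPM per kb), FAM222A-AS1 (1.68) and RHCE (1.57) lay above CCDC113 (0.811), which has a longer transcript.

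The same limits were also applied to 4 libraries at a time, and the differences were read in the pair left out. With replicates 1, 2 and 3 left out in turn, 84, 82 and 82 of the rows chosen were already among the scarce transcripts. The left-out libraries share the hairpin and doxycycline treatment of the others, and replicate numbers do not pair the samples. The shares below come largely from rows whose difference the choice had fixed. They are a description and not an independent test. When replicate 1 of both groups was left out, 126 rows met the same limits in the other 4 libraries, and 125 of them were higher in the left-out IRF1shRNA library than in the left-out control, 104 by at least 2-fold (82.5%). Of the 1185 rows that met the levels but not the margin in those 4 libraries, 111 (9.37%) were higher by at least 2-fold in the left-out pair. Leaving out replicate 2 gave 133 of 136 higher and 99 by at least 2-fold (72.8%, against 11.2%), and leaving out replicate 3 gave 120 of 123 and 100 (81.3%, against 14.4%). The median ratio in the left-out pair was 2.75, 2.97 and 3.08, below the 3.26, 3.12 and 3.22 in the libraries that made the choice. The rows that were not higher were LENG1 for the first, GRAMD2A, HCLS1 and NSMCE1-DT for the second, and KCNK7, SCART1 and MIR3648-2 for the third.

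**Figure D5:**
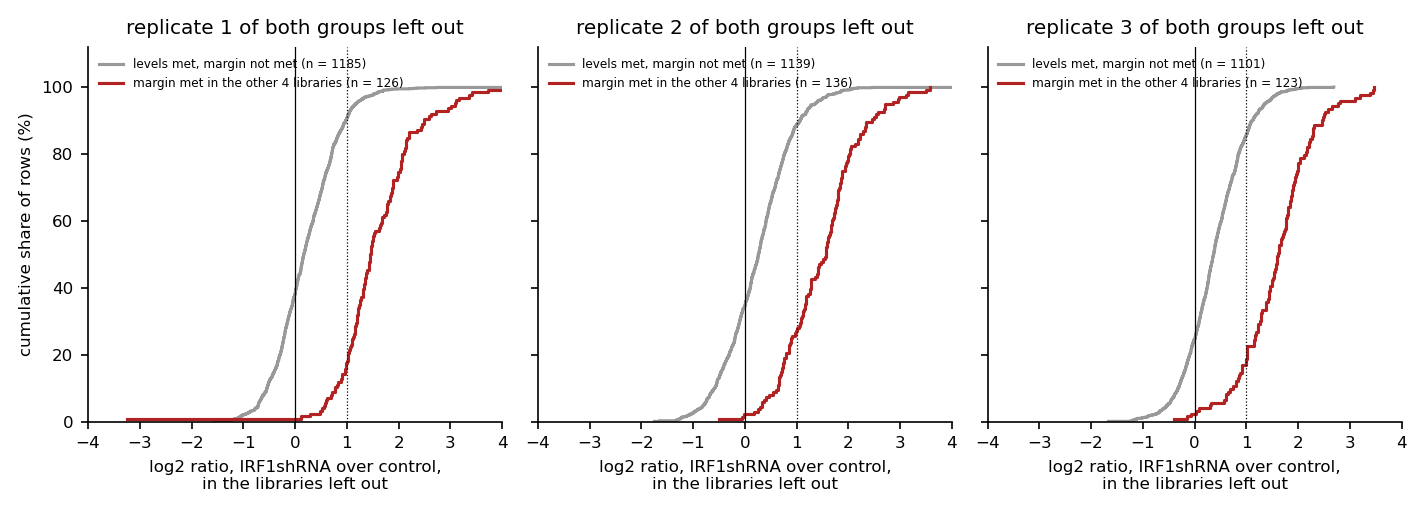
Cumulative share of rows (y axis, percent) by log2 ratio of IRF1shRNA over control in the pair of libraries that took no part in the choice (x axis), for each replicate number left out. Red lines, rows that met the limits in the other 4 libraries; grey lines, rows that met the level limits but not the margin, of which those with a count in both left-out libraries are drawn; solid vertical line, no difference; dotted line, 2-fold. The red lines lie to the right of the grey in all 3 panels, with medians of 2.75, 2.97 and 3.08 times.

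The mirrored limits, which take transcripts scarce in IRF1shRNA and at least 2 times as high in every control, were met by 91 of 1245 rows (7.31%), of which 81 remained after the prefixes. That list opened with IFI27 (47.7 to 0.641 CPM), IGFBP6 (12.1 to 0.872 CPM), CMPK2 (8.51 to 0.382 CPM) and GBP3 (7.96 to 0.631 CPM). Of 44 IFN-stimulated genes on a list, 44 were tested and all 44 were lower, against 26.4% of all genes tested. The limits for the 85 transcripts require a rise, so no gene called lower could be among them. The median genomic span of the 69 coding genes of the mirrored list was 17.5 kb.

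Other gene lists held few of the transcripts, and their counts stand beside 24.1% of all genes tested called higher and 26.4% called lower. The synapse and neuron list had 31 higher and 26 lower of 88 tested, with STMN4 and TMEM59L as members. The homeobox list had 11 higher and 40 lower of 92, with HOXA5 as its single member, and the voltage-gated ion channel list 5 higher and 17 lower of 43, with KCNH2. No member fell on the lists of neurotransmitter and adhesion G protein-coupled receptors (7 higher and 14 lower of 36), germ cell and cancer-testis genes (7 and 3 of 22) or cadherins (8 and 14 of 53). The germ cell list had 4 higher without control replicate 3, and the cadherin list 5 higher without IRF1shRNA replicate 3.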

How the data were processed

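RNA-seq of 3 control and 3 IRF1shRNA cultures of BT-549 was analysed. The table that the authors deposited holds unnormalised read counts by gene symbol. The submitters' processing notes name CASAVA 1.8.2, STAR 2.7.9a, featureCounts and DESeq2 1.24.0, with the build GRCh38.p7. Which annotation release was used, and whether strand was, is not given in the sources used here. Of values from 2 to 11 counts, 72.1% to 75.2% per library were even, so mates appear to have been counted singly and halved counts were tried. All 6 columns were matched by title and 0 were left over. CPM used column totals.

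Genes were fitted with edgeR 4.0.16 (R 4.3.3, quasi-likelihood, TMM, filterByExpr with a minimum count of 10, group as the single factor, Benjamini-Hochberg adjustment, threshold 0.05), which was tested on simulated data. DESeq2 1.42.0 served as an alternative. Standard errors were the absolute log2 fold change divided by the square root of edgeR's F statistic. They and the p-values rest on 3 cultures per group, with a spread that edgeR moderates with that of the other genes. Positions came from GENCODE 29, promoters from RefSeq GRCh38.p14. Sharing was the percentage of 32-base transcript stretches found in another gene.

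The members and lists were chosen with earlier results of these data known. Members were named if they were among the 12 with the highest IRF1shRNA mean or the 8 with the largest ratio, the 3 on either side of the margin, up to 4 per list, or the 3 highest per annotation class, besides IRF1, and all other names were chosen after their values were seen. The values of 1 member are not reported here, though it stays in the counts and sums. Alternatives were other scalings, filters and limits, DESeq2, a replicate block, leaving out libraries, halved counts and thinning. The motif GTTGCC was added after the data were seen.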

Additional observations from a re-analysis of the deposited data

How the results depend on the processing

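The number of transcripts that met the limits was 85 as reported. It was 201 with a margin of 1.5 times, 27 with 3 times, 53 with an IRF1shRNA limit of 1 CPM, and 95 to 136 when a library or a replicate number was left out, the 136 coming without replicate 2 of both groups. It lay between 59 and 120 with the other limits, scalings, thinning and halving tried, and 67 of the 78 found after thinning were among the 85. With low genes removed unless 3 samples reached 1 CPM, 48 of the 85 passed. The 489 fitted values of 33 named members under the alternatives were all above 0, from 0.95 to 3.30. Calls over all genes stayed within 1.5 times under every alternative run, and with each library left out in turn ran from 3915 to 4447 higher and from 4413 to 4858 lower. The replicate numbers do not pair the samples (correlations of deviations 0.0137, 0.0250 and -0.00724), and the replicate block gave 4490 higher and 4972 lower calls and a median of 1.72 for the members. Under the alternatives, 12 counts of calls for the gene lists moved by over 1.5 times and 244 did not. With the filter of 1 CPM these were the cilium (29 higher in place of 44), homeobox (5 for 11), cadherin (5 for 8) and receptor lists (3 for 7 higher, 7 for 14 lower) and the germ cell list (1 for 3 lower). At an adjusted p under 0.01 the receptor list had 4 higher and 9 lower and the germ cell list 4 higher, and scaling by library size gave 8 channel genes higher in place of 5. The remaining moves, without control replicate 3 (germ cell list, 4 for 7 higher) and without IRF1shRNA replicate 3 (cadherin list, 5 for 8 higher), came from leaving out a library. Depth limits the rarest members, whose control libraries held as few as 3 counts, and groups of 3 were not tested for outlying samples.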
